A study of Mus musculus with 4 samples.

Results

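The insulin-like growth factor (IGF) genes considered here are the ligands Igf1 and Igf2, the receptors Igf1r and Igf2r, and the binding proteins Igfbp2, Igfbp3, Igfbp4, Igfbp5, Igfbp6 and Igfbp7. They were taken by name from the expression matrices, and all 10, of 29281 genes listed in any of the 4 files, are present in every file. Their levels were described in cells of the mouse prefrontal cortex (PFC) by age and by marker-defined class, with the question of which classes make the ligands and binding proteins and which carry the receptors.

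The study captured dissociated PFC of wild-type C57BL/6J mice at postnatal day (P) 1, P4, P10 and in adult (P84), without treatment, with the whole transcriptome kit of BD Rhapsody, where UMIs (unique molecular identifiers) count the captured RNA molecules of each cell. The methods state that all mice were female and that 2 were used at each age, and the cells were not mapped to mice here, so each age is 1 library. No test between ages was therefore possible, and nothing below has a replicate check. After the cell filter of the methods, 11545, 19014, 15272 and 14087 cells remained from P1 to adult, with medians of 25800, 12047, 18057 and 11065 UMIs.

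The P1 library stands apart from the others. Its header names a later version of the counting pipeline than those of P4, P10 and adult, with introns not excluded, and calls the library P0, so that age and processing cannot be told apart at P1. It also held 120 UMIs per 1000000 UMIs (CPM) of 4 Y-linked genes, against 0.126 to 0.190 CPM in the other libraries. For these reasons the step from P4 to adult is the main one, and it does not use P1. P1 shared 10 to 20 cell indices with each of the other libraries, and the others shared 256 to 323 with each other.

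Classes were built by clustering each library and are named after their markers ("IT-like" for intratelencephalic excitatory neurons and so on), with the 10 IGF genes kept out of the clustering. IT-like is a looser class. Its clusters needed a positive score for excitatory markers, at least 3 detected IT markers and scores under 1.0 for every other class. No minimum IT score was set. Some of its clusters scored highest for another class, at low scores (oligodendrocyte, -0.024, in 1024 P1 cells, and choroid plexus, -0.051, in 1214 P10 cells). In the Pvalb-like class Pvalb itself was at 0, 0.235, 7.79 and 646 CPM from P1 to adult, so at the young ages that class rests on its other markers, and its P1 cluster scored highest for Sst markers. The P1 L6b-like class held 324 cells. In a finer clustering (resolution 2.0), 175 P1 cells were named L6b-like and 152 L5 NP-like, a class not named at P1 in the main one. The part of L5 NP-like cells in the P1 values of L6b-like cells was not tested. Endothelial-like cells held 3712 to 4120 CPM of Rgs5, a pericyte gene, at every age, and red blood cell genes summed there to 16804, 11552, 7023 and 6716 CPM from P1 to adult. The part of these RNAs in the endothelial values below was not tested. Unnamed clusters held 8.28%, 21.5%, 13.1% and 5.93% of cells from P1 to adult. Among them, clusters of 1445, 844 and 789 cells at P4 and 1 at P10 were kept out of the IT-like class by their leading genes. IT-like levels at P4 and P10 therefore leave out cells that may be IT neurons, which limits their comparison with other ages. With these clusters included, 1 of the called log2 ratios of members from P4 to adult was lost.

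IGF-I and IGF-II are secreted peptides that promote growth and survival. Both act through the IGF-I receptor, a tyrosine kinase encoded by Igf1r, whereas the receptor encoded by Igf2r carries IGF-II to lysosomes and lacks kinase signalling. IGF binding proteins hold the ligands outside the cell, prolong their life and limit or promote their access to the receptor, and proteases such as pregnancy-associated plasma protein A cut them to release the ligand.

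Levels are given as CPM, the UMIs of a gene relative to all UMIs of a class, scaled as above (mitochondrial and ribosomal protein genes left out), with exact Poisson intervals at the 95% level in brackets. They cover counting error only. A gene is said to rise or fall when its CPM differed at least 2-fold between the ages, the exact interval of the log2 ratio left out 0 and the higher side held at least 20 UMIs, which is a rule of size and not a test. A level is called background when the lower limit of its interval does not exceed what free RNA, as estimated from markers of unrelated cell types, would give. That estimate is a median with no interval of its own, so a level not far above it may still be free RNA. CPM is not scaled to gene length and is compared here only within a gene. Fewer expressing cells and less RNA per cell within a class cannot be told apart here. The share of cells with a UMI, also computed after thinning each cell to 2000 UMIs, largely follows the level at low counts.

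The genes lie on 7 chromosomes of GRCm38 (GENCODE vM21). Igf1 is at chr10:87858265-87937042 on the plus strand, Igf2 at chr7:142650766-142666816 on the minus strand, Igf1r at chr7:67952827-68233668 on the plus strand and Igf2r at chr17:12682406-12769664 on the minus strand. Igfbp2 (chr1:72824503-72852474, plus strand) and Igfbp5 (chr1:72857932-72874884, minus strand) are neighbours. Igfbp3 is at chr11:7206086-7213923 (minus), Igfbp4 at chr11:99041244-99054392 (plus), Igfbp6 at chr15:102144362-102149511 (plus) and Igfbp7 at chr5:77349240-77408041 (minus). Antisense genes overlap Igf1 (Igf1os), Igf2 (Igf2os), Igf2r (Airn) and Igfbp7 (Gm34648 and the coding gene Polr2b), and use of strand in the counting is not given in the sources used here. The coding gene Gm49394 overlaps Igf2 on the same strand, and how reads shared by them were counted is not known.

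The promoters of 3 members are shown because their genes follow the patterns that the results turn on: a ligand at its highest in a few classes (Igf1), a receptor found in nearly every class (Igf1r) and a binding protein seen almost only in the adult library (Igfbp6). The sequences, from RefSeq on GRCm38.p6, run from 250 bases before to 50 after the annotated start, 5′ to 3′, with every CG dinucleotide in capitals. The RefSeq starts differ from the GENCODE gene starts above. The Igf1 window is chr10:87860861-87861160, the Igf1r window chr7:67952007-67952306 and the Igfbp6 window chr15:102143936-102144235, all on the plus strand.
Igf1: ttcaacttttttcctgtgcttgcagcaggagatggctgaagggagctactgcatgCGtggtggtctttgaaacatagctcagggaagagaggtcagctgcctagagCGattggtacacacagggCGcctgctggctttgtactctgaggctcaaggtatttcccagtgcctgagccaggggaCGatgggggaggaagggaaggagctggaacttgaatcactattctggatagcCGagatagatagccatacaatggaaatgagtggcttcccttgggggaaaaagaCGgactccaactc
Igf1r: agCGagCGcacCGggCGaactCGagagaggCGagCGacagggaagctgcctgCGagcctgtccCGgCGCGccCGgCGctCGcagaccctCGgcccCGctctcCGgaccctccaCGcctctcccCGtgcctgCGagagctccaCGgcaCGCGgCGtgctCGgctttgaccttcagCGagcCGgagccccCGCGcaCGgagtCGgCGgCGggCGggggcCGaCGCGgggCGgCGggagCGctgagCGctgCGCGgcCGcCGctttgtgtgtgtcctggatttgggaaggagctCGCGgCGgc
Igfbp6: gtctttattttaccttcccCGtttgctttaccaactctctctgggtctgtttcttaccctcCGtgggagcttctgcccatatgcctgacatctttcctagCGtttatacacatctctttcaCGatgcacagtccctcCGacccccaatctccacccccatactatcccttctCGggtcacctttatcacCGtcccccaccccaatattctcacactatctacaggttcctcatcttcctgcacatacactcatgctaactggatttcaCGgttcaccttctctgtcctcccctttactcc

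The Igf1r window holds 48 CG and 99.0% of 32851 RefSeq promoters of the same length hold that many or fewer. The Igf1 window holds 6 CG and the Igfbp6 window 8, near the median of 7 over all promoters, of which 94.6% hold at least 1. The letters TATAAA, searched on both strands, occur in the Igfbp6 window and in that of Igfbp4 and in no other window of a member, and 13.6% of all promoters hold them. All 10 members had at least 1 promoter in the table.

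Igf1 was carried mainly by inhibitory neurons, and within them by Vip-like cells, which come from the caudal ganglionic eminence and largely target other interneurons. In Vip-like cells Igf1 was at 244 CPM [233-255] at P1 and 426 [411-441] at P4, then at 924 [904-946] at P10 and 466 [446-487] in adult. These levels were highest at P10, where the interval lies clear of the other ages. Igf1 rose 2.17-fold in these cells from P4 to P10, was 1.75-fold higher at P4 than at P1 and was 1.98-fold lower in adult than at P10, both just short of the rule. The fall from P10 to adult passed it under the stricter cell filter (2.03-fold) and without cells marked as doublets (2.05-fold). The rise from P4 to P10 lies near the threshold and was lost at resolution 0.5 (1.93-fold), at resolution 2.0 (1.56-fold) and without cells marked as doublets (1.95-fold). No Lamp5-like cluster was named at P4, and at resolution 0.5 none was at P10 either, where Vip-like cells then held 775 CPM. Excitatory neuron markers in Vip-like cells summed to 840 CPM at P4 and 419 at P10, and their part in the rise was not tested. The P1 Vip-like class held 438 cells. At resolution 2.0, 332 P1 cells were named Vip-like, with 306 CPM of Igf1, and 106 neuroblast-like, a class not named at P1 at the main resolution. The part of such cells in the P1 values of Vip-like cells was not tested.

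Sst-like cells were also highest at P10 and lowest at P1, with 64.3, 175, 335 and 97.0 CPM from P1 to adult. Igf1 rose there 2.72-fold from P1 to P4 and fell 3.46-fold from P10 to adult, the latter lost at resolution 0.5 (1.89-fold), where the P10 level was 185 CPM. In the P1 Sst-like cluster 27.0% of cells were marked as doublets, and excitatory neuron markers summed to 945 CPM at P1 and 269 at P4. Without marked cells the rise from P1 to P4 was 2.10-fold. In Pvalb-like cells it was at 15.3, 44.0, 97.1 and 17.1 CPM, and it fell 5.68-fold from P10 to adult. Lamp5-like cells, identified at P10 and in adult only, held 487 [467-509] and 262 [243-283] CPM. All 4 inhibitory classes were thus higher at P10 than in adult, and the order Vip, Lamp5, Sst, Pvalb held at both of these ages without overlap of the intervals.

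The share of Vip-like cells with at least 1 Igf1 UMI was 46.6%, 61.0%, 89.4% and 89.0% from P1 to adult. After thinning to 2000 UMIs it was 23.1%, 40.4%, 69.2% and 53.7%. IT-like cells, whose Igf1 was at background at P10 and in adult, gave 0.198%, 0.412%, 0.585% and 0.0747% after thinning, against 2.93%, 3.02%, 5.24% and 1.27% before it. The median depths were 15578, 7744, 15371 and 11555 UMIs in Vip-like and 29519, 14225, 25624 and 19737 in IT-like cells. The tenth of Vip-like cells richest in Igf1 held 51.9% of the class's Igf1 UMIs at P1 and 32.5% in adult. Whether the P1 class includes the neuroblast-like cells given above was not tested, so these ages may compare unlike cells.

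Igf1 also marked myeloid cells, and in microglia-like cells it was highest at P1 and lower at each later age. Microglia-like cells held 401 CPM [361-445] at P1 (34 cells), 67.8 [51.5-87.7] at P4 (86 cells), then 40.1 [33.2-48.0] at P10 and 5.05 [3.09-7.81] in adult, the last at background. From P4 to adult Igf1 fell 13.4-fold in them, a log2 ratio of -3.75 [-4.56 to -2.99]. The share with a UMI after thinning was 29.4% at P1 and 0.865% in adult. In the adult library 44 border macrophage-like cells, the macrophages of the meninges and vessel walls, held 484 CPM [400-580], which does not differ from Vip-like cells beyond the intervals, and 62.8% of them had a UMI after thinning. The 7 border macrophage markers summed to 403, 447, 912 and 36.1 CPM in microglia-like cells from P1 to adult, against 9679 in the adult border macrophage-like cells. Their part in the fall of Igf1 in microglia-like cells was not tested.

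Among excitatory neurons Igf1 was low. L6 CT-like cells, which project to the thalamus, held 0.586 (background), 4.94, 22.3 [20.6-24.1] and 6.84 CPM from P1 to adult, again highest at P10. L5 NP-like cells held 8.76, 11.6 and 7.16 CPM from P4 to adult and L5 PT-like cells 1.15 to 4.37 CPM over all ages. Adult fibroblast-like cells, of which there were 27, held 79.7 CPM [44.6-131].

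Igf2 had few UMIs in any library. It had 24, 13, 28 and 12 UMIs from P1 to adult over all cells that passed the filter, or 0.0776, 0.0528, 0.107 and 0.0671 CPM. The overlapping gene Gm49394 had 2 UMIs at P1, 0 at P4 and P10 and 263 in adult (1.47 CPM), and whether Igf2 transcripts are among them was not tested. At P1, 10 of the 24 Igf2 UMIs were in mural-like, 9 in endothelial-like and 3 in astrocyte-like cells. Mural-like cells held 18.7 [8.98-34.5], 2.67, 17.4 and 4.24 CPM, and fibroblast-like cells 57.0 [26.1-108] at P10 and 15.9 [3.29-46.6] in adult. Fibroblast markers in mural-like cells summed to 1579, 864, 1276 and 337 CPM from P1 to adult, with no fibroblast-like class named before P10, and their part in the mural-like values was not tested. Endothelial-like cells held 4.14, 2.15, 1.10 and 0.613 CPM, and P4 microglia-like cells 2.34 from 2 UMIs. With so few UMIs no step between the ages could be read within a class.

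**Figure D1:**
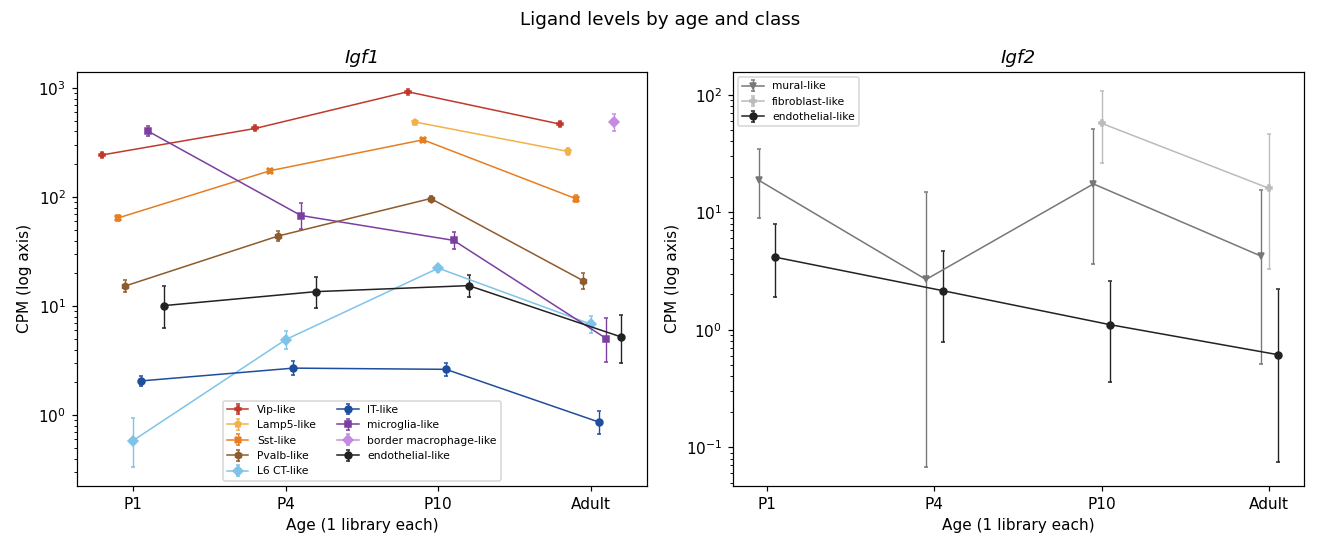
CPM of Igf1 (left) and Igf2 (right) on a log axis against age, with 1 library per age. Points are classes, bars are exact Poisson 95% intervals and values of 0 are not drawn. Igf1 in Vip-like cells reaches 924 CPM at P10, while microglia-like cells go from 401 at P1 to 5.05 in adult. Igf2 stays below 60 CPM in every class drawn.

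Igf1r was found in every named class, at background only in P1 microglia-like cells, with endothelial-like cells highest at every age. They held 676 CPM [642-712] at P1 and 305 [285-327] at P4, then 344 [327-361] at P10 and 1203 [1166-1241] in adult. Igf1r rose 3.94-fold in them from P4 to adult, a log2 ratio of 1.98 [1.87 to 2.09], and 3.50-fold from P10 to adult. Over the step from P4 the markers of dividing cells in this class went from 709 to 9.20 CPM, those of microglia from 162 to 1099.7 and those of astrocytes from 209 to 1818, and their part in this and the other endothelial changes was not tested. The share of endothelial-like cells with a UMI after thinning was 60.0%, 38.6%, 45.8% and 84.8% from P1 to adult, against 100%, 79.1%, 76.9% and 94.5% before it. Adult endothelial-like cells stood 8.04-fold above L5 NP-like cells, the next of the adult classes with at least 50 cells.

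In the 6 neuronal classes named here that were found at all ages (IT, L5 PT, L6 CT, Vip, Sst and Pvalb), Igf1r was highest at P1 and lowest at P10. IT-like cells held 153 CPM [151-155], 66 [64.0-68.0], 34.6 [33.4-35.9] and 80.6 [78.6-82.6] from P1 to adult, without the clusters kept out at P4 and P10. The rise from P10 to adult was 2.33-fold in IT-like cells and 2.85-fold in L5 PT-like cells (130, 49.7, 22.8 and 65.0 CPM), the neurons that project to the brainstem and spinal cord. L6 CT-like cells held 205, 125, 66 and 129 CPM, above both at each age. L6b-like cells, the remnant of the subplate, held 276, 151 and 103 CPM from P1 to P10, and L5 NP-like cells 109, 85.3 and 150 from P4 to adult. At P1 the L6b-like class may hold L5 NP-like cells, as set out above. After thinning, 23.9%, 11.1%, 6.32% and 15.9% of IT-like cells had a UMI, a share that largely follows the level at this depth.

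In inhibitory classes adult Igf1r lay below that of IT-like cells. No inhibitory class rose from P10 by the rule, and neither did L6 CT-like or L5 NP-like cells, though the levels given were higher in adult. Vip-like cells held 312, 99.3, 40.5 and 71.3 CPM, Pvalb-like cells 259, 121, 31.8 and 54.9, and Sst-like cells 121, 48.4, 24.4 and 39.0. In Pvalb-like cells Igf1r fell 2.21-fold from P4 to adult, whereas the log2 ratio over all inhibitory cells was -0.72, within the rule. From P1 to P4 Igf1r fell in IT-like, L5 PT-like, Vip-like, Sst-like and Pvalb-like cells, from 2.14-fold in Pvalb-like to 3.14-fold in Vip-like cells. Igf1r spans 280.8 kb, mostly intron, and the P1 counts did not exclude introns, so this step cannot be told apart from the processing.

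Among glia, astrocyte-like cells held 254, 63.4, 45 and 83.8 CPM of Igf1r and oligodendrocyte-like cells 35.4 at P10 and 82.7 in adult. The P10 cluster scored higher for markers of committed precursors than for those of oligodendrocytes, so these values are of unlike stages and are not compared. Microglia-like cells held 43.6 (background), 52.6, 57.3 and 69.3 CPM. In the adult order fibroblast-like (165 [112-234]), L5 NP-like (150 [141-158]), L6 CT-like (129 [124-134]), mural-like (114 [85.9-149]) and border macrophage-like cells (108 [70.8-159]) followed endothelial-like cells, each overlapping the next but for L5 NP-like and L6 CT-like cells.

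For Igf2r the class order differed. Mural-like cells, the pericytes and smooth muscle of vessels, held most, with 215 [178-259], 139 [104-182], 238 [171-323] and 106 CPM [78.6-140] from P1 to adult. Without cells marked as doublets the P4 level was 219. Mural markers in mural-like cells summed to 26703, 14594.5, 48295 and 21994 CPM from P1 to adult. The part of these differences in the Igf2r levels here and the Igfbp7 levels below was not tested. Endothelial-like cells held 63.0, 78.7, 58.4 and 24.5 CPM, a 3.21-fold fall from P4 to adult, so that the receptors moved in opposite directions in this class. Over the same step the summed CPM of mural markers in endothelial-like cells was 5264 at P4 and 5689 in adult. IT-like, L5 PT-like and L6 CT-like cells lay between 18.5 and 35.8 CPM at all ages, and no excitatory class rose or fell between consecutive ages. Microglia-like cells were at background at every age (2.23 to 15.2 CPM).

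**Figure D2:**
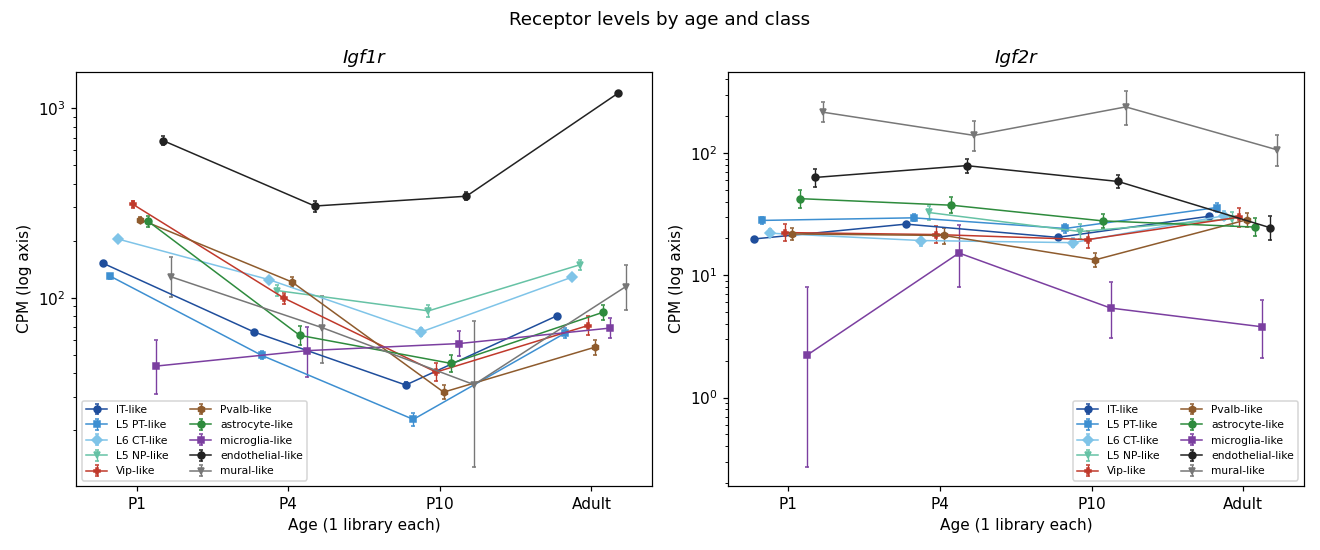
CPM of Igf1r (left) and Igf2r (right) on a log axis against age, with 1 library per age. Points are classes and bars exact Poisson 95% intervals. Igf1r in endothelial-like cells lies above all other classes drawn and reaches 1203 CPM in adult, neurons are lowest at P10, and Igf2r is highest in mural-like cells.

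Igfbp2, which encodes a secreted protein that binds both ligands, was mainly a gene of astrocyte-like, progenitor and fibroblast-like cells. Astrocyte-like cells held 113 CPM [101-125] at P1, 573 [552-596] and 562 [546-578] at P4 and P10, and 213 [201-225] in adult. From P4 to adult it fell 2.70-fold, a call lost at a clustering resolution of 0.5 (log2 -0.73), where P4 astrocyte-like cells held 353 CPM. Dividing progenitor-like cells held 182 CPM at P1 and 142 at P4, above astrocyte-like cells at P1 and below them at P4, but at resolution 2.0 below them at P1 too (129 against 231). In the P1 progenitor-like class astrocyte markers summed to 4941 CPM and dividing-cell markers to 4313, against 7251 and 308 in P1 astrocyte-like cells. At P1 these classes are therefore not cleanly separated, for Igfbp2 or for the other genes. Fibroblast-like cells held 1646 [1452-1859] at P10 (26 cells) and 1169 [1020-1334] in adult (27 cells).

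In the main excitatory classes Igfbp2 was lower at each age than at the one before. IT-like cells held 36.1, 21.8, 8.28 and 4.94 CPM, L5 PT-like cells 40.6, 16.9, 4.43 and 1.27, and L6 CT-like cells 65.9, 46.1, 8.44 and 0.597. The last value is at background. In IT-like cells 67.9% of the P10 UMIs came from 1 of 3 clusters, without which the class held 3.80 CPM, and 81.6% of the adult UMIs from 1 of 4 clusters (1091 of 4083 cells, 16.9 CPM), without which it held 1.19. In L6 CT-like cells the log2 ratio of adult over P4 was -6.27 [-7.28 to -5.42], a 77.1-fold fall, and the share of cells with a UMI after thinning went from 8.66% to 0.350%. OPC-like cells, the precursors of oligodendrocytes, held 56.1, 80.1, 55.4 and 11.9 CPM.

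Igfbp3, the main carrier of IGF in blood, was a deep-layer gene at birth. L6 CT-like cells held 131 CPM [127-136], 71.9 [68.3-75.5], 24 [22.3-25.8] and 16.1 [14.3-18.0] from P1 to adult, and it fell 4.47-fold from P4. L6b-like cells held 74.5, 55.3 and 31.4 CPM to P10, with the limit given above for their P1 class. IT-like cells held 7.16 to 9.58 CPM at all ages, so that the gap between L6 CT-like and IT-like cells narrowed. Endothelial-like cells held 144 CPM [128-160] at P1, overlapping L6 CT-like cells, and 46.5, 40.8 and 50.3 later. OPC-like cells held 44.2, 52.7, 58.7 and 77.9 [68.3-88.5], the highest of the adult classes with at least 50 cells. Sst-like cells held 33.3, 65.6, 45 and 36.3 CPM, while Pvalb-like cells went from 29.4 at P4 to 3.86 in adult, a 7.60-fold fall.

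Igfbp4, the substrate of pregnancy-associated plasma protein A, changed its place between the ages. At P4 it was highest in endothelial-like cells, with 567 CPM [539-595], and microglia-like cells, with 326 [289-367]. Endothelial-like cells held 493, 567 and 394 CPM from P1 to P10 and 29.7 [24.1-36.3] in adult, which is at background. The log2 ratio of adult over P4 was -4.25 [-4.56 to -3.96], a 19-fold fall, and the share with a UMI after thinning was 45%, 57.4%, 48.1% and 4.47%. Microglia-like cells held 235, 326, 524 and 75.8 CPM and fell 4.30-fold from P4. The 44 adult border macrophage-like cells held 992 [870-1126], and the border macrophage marker sums given above went from 447 to 36.1 CPM in microglia-like cells over that step.

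L5 PT-like cells moved the other way. They held 19.1 CPM [17.7-20.6], 70.1 [67.3-73.0], 156 [152-161] and 419 [409-429] of Igfbp4 from P1 to adult, higher at each age than at the one before. The rise from P4 to adult was 5.98-fold, a log2 ratio of 2.58 [2.51 to 2.65]. After thinning 3.49%, 7.96%, 21.9% and 45.8% of L5 PT-like cells had a UMI, against 2.18%, 1.5% and 2.21% of L5 NP-like cells from P4 to adult. Their median depths were 24760 and 11148 UMIs in adult. L6 CT-like cells held 34.6, 29.5, 28.1 and 123 CPM, a 4.16-fold rise from P4. IT-like cells held 52.3, 56.1, 61.2 and 27.8 CPM, and their 2.02-fold fall from P4 lies near the threshold of the rule.

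IT-like Igfbp4 was unevenly spread between clusters. At P1, 33.7% of its UMIs came from 26 cells (0.515% of the class) of a cluster led by Camk2a and Igfbp4 itself, at 2242 CPM, and without them the class held 34.9 CPM. This P1 cluster scored highest for L5 PT markers, at a low score (0.186). In it 6 IT markers were detected but none was among its leading genes, so its name is uncertain. At P10, 70.1% of the IT-like UMIs were in a cluster of 1187 of 3418 cells, at 143 CPM, and the rest held 26.1. In adult the clusters ranged from 10.4 to 62.4 CPM. Among inhibitory cells Pvalb-like cells held 302, 249, 150 and 246 CPM and Sst-like cells 74.4, 41.3, 67.1 and 126, the latter a 3.06-fold rise from P4.

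Igfbp5, a binding protein that also binds extracellular matrix, took different courses in different classes. Astrocyte-like cells held 677 CPM [649-707] at P1 and 88.1, 147 and 141 later, but at a resolution of 2.0 the P1 level was 289. The P1 cluster was led by Plagl1, Hopx and Slc14a2 among others, genes that at P4 and P10 lead unnamed clusters high in Igfbp5 (1903 and 2446 CPM), so the ages compare unlike cells. In astrocyte-like cells the dividing-cell markers, at the main resolution, summed to 308, 82.6, 26.5 and 5.97 CPM from P1 to adult, and their part in the result was not tested. L5 PT-like cells held 68.1, 400 [393-407], 243 and 71.3 [67.3-75.5], a 5.60-fold fall from P4 to adult. L6 CT-like cells held 1.25 (background), 18.2, 42.0 and 112 [107-117], a 6.18-fold rise over the same step. Astrocyte markers in L6 CT-like cells summed to 179 CPM at P4 and 2228 in adult, and their part in the rises of Igfbp4 and Igfbp5 there was not tested. The share of cells with a UMI after thinning went from 44.1% to 12.3% in L5 PT-like and from 2.84% to 15.3% in L6 CT-like cells, so these neighbouring deep-layer classes traded places.

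IT-like cells held 25, 133, 210 and 143 CPM of Igfbp5 from P1 to adult, unevenly between clusters. At P10 a cluster led by Aldh1a3 and St8sia2 held 533 CPM and 76.0% of the UMIs, and the remaining IT-like cells held 71.9. In adult the clusters lay between 89.3 and 201 CPM. Sst-like cells held 99.7, 272, 258 and 178 CPM, Vip-like cells 27.8, 120, 170 and 223, and L6b-like cells 89.9, 294 and 289 to P10. The limits given above for the P1 classes of Vip-like and L6b-like cells hold here too. Astrocyte-like cells at P10 comprised 1792 cells with 60.4 CPM of Igfbp5 and 612 of Igfbp2, and 192 cells led by Gfap and Myoc with 723 CPM of Igfbp5 and 230 of Igfbp2. The binding proteins thus had opposite orders in these astrocyte-like clusters.

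Igfbp6, which prefers IGF-II over IGF-I, was seen almost only in the adult library. Over all cells it was at 0.123, 0.0568 and 0.203 CPM from P1 to P10 and 45.9 in adult. IT-like cells gave 14, 1, 11 and 6050 UMIs, or 0.0950, 0.0157, 0.130 and 78.4 CPM [76.5-80.4]. With the P4 side set at 3 UMIs the log2 ratio was 10.70, and the interval from the counts themselves was 9.81 to 17.59. Every one of the 4 adult IT-like clusters held it, from 53.5 to 113 CPM.

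The order of adult classes in Igfbp6 was IT-like, L5 PT-like (31.6 [28.9-34.4]), L6 CT-like (20.7 [18.7-22.9]) and L5 NP-like (13.7 [11.2-16.5]) among excitatory neurons, with no overlap of the intervals. All 4 inhibitory classes (7.03 to 11.5 CPM) and OPC-like cells (23.1) were at background, while astrocyte-like (16.7), endothelial-like (17.5) and microglia-like cells (16.9) lay above their estimated backgrounds of 11.3, 12.7 and 9.21 CPM, as did oligodendrocyte-like cells (12.4 against 9.04). These estimates have no interval of their own, so levels this near them cannot be told apart from free RNA. Fibroblast-like cells held 31.9 CPM from 6 UMIs, at background. By the mean over cells of each cell's own CPM they held 85.1, above IT-like cells at 79.7. The background of IT-like cells was 2.04 CPM. A UMI was seen in 63.2% of adult IT-like cells, and in 13.3% after thinning. In Lamp5-like cells these shares were 5.13% and 0% (0 of 156 cells, which allows up to 2.34% of cells with a UMI at that depth and says nothing of cells expressing the gene), at a median of 17907 UMIs against 19737. Before adulthood no class exceeded 3.75 CPM.

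Igfbp7, a matrix protein of vessels with low affinity for the ligands, belonged to the vessel wall at every age. Endothelial-like cells held 3841 CPM [3759-3924], 2631 [2571-2692], 2842 [2793-2892] and 2238 [2187-2290] from P1 to adult. Mural-like cells held 2181 [2057-2310], 1364 [1248-1487], 4031 [3737-4343] and 2684 [2538-2836], above endothelial-like cells at P10 and in adult and below them before. The adult order turned under the stricter cell filter, with 1615 CPM in mural-like and 2259 in endothelial-like cells. After thinning, 90.4% to 98.8% of endothelial-like cells had a UMI, while L6 CT-like cells, at background at P1 and P4, gave 0.406% to 0.818%, and 2.36% to 6.98% before it. IT-like cells held 10.8, 5.63, 6.13 and 12.2 CPM, and L5 PT-like cells 17.3 at P10 and 7.34 in adult after background levels before.

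**Figure D3:**
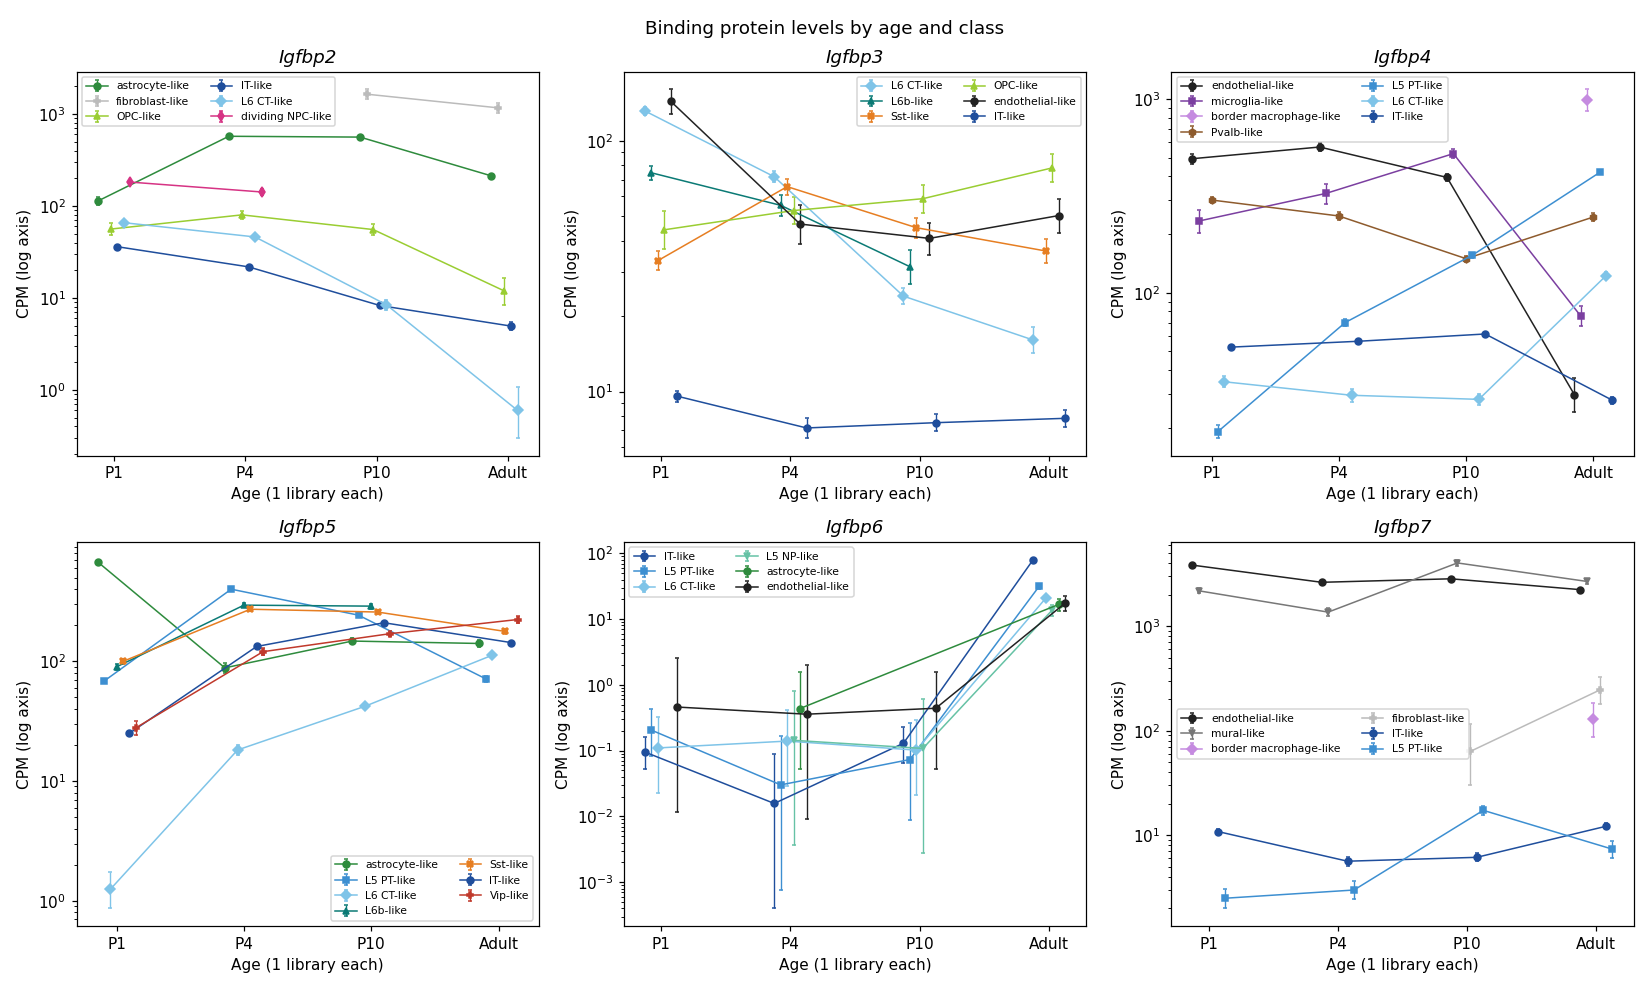
CPM of 6 binding protein genes on log axes against age, with 1 library per age and 1 panel per gene. Points are classes and bars exact Poisson 95% intervals. Igfbp4 goes from 567 to 29.7 CPM in endothelial-like cells and from 70.1 to 419 in L5 PT-like cells between P4 and adult, Igfbp6 is under 1 CPM in the classes drawn until adulthood, and Igfbp7 stays above 1000 CPM in endothelial-like and mural-like cells.

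The step from P4 to adult can be read against all genes of the same class. In IT-like cells 2 of 9 members with enough UMIs rose (Igfbp6 and Igfbp7), where 20.4% of all 15285 genes tested did, and 3 fell (Igf1, Igfbp2 and Igfbp4), where 22.6% did. In L5 PT-like cells 3 rose (Igfbp4, Igfbp6 and Igfbp7) against a background of 15.6%, and 3 fell (Igf1, Igfbp2 and Igfbp5) against 20.5%. In L6 CT-like cells 3 rose (Igfbp4, Igfbp5 and Igfbp6) against 15.4%, and 2 fell (Igfbp2 and Igfbp3) against 23.4%. The median log2 ratio of the members was 0.13 in IT-like, 0.28 in L5 PT-like and 0.47 in L6 CT-like cells, beside -0.12, -0.13 and -0.24 over all genes. With 9 members, counts of 2 or 3 are too few to set against these backgrounds and are not read as a result about the members.

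In inhibitory neurons 1 rose (Igfbp6, to a level at background) against 16.8% and 1 fell (Igfbp2) against 20.1%. In astrocyte-like cells 1 rose (Igfbp6) against 14.6% and 3 fell (Igfbp2, Igfbp3 and Igfbp4) against 13.3%. In OPC-like cells 2 rose (Igfbp6 and Igfbp7, both to background levels) against 12.2% and 1 fell (Igfbp2) against 9.13%. In endothelial-like cells 2 rose (Igf1r and Igfbp6) against 14.4% and 4 fell (Igf1, Igf2r, Igfbp4 and Igfbp5) against 13.6%. In microglia-like cells, where 7 members were tested, 1 rose (Igfbp6, 4.83-fold with its 0 UMIs at P4 set at 3) against 12.3% and 4 fell (Igf1, Igfbp3, Igfbp4 and Igfbp5) against 16%. The P4 levels of Igf1 in endothelial-like cells and the adult levels of Igf1, Igfbp3 and Igfbp5 in microglia-like cells were at background. The fall of Igfbp5 in endothelial-like cells was lost without cells marked as doublets (log2 -0.53), as was that of Igf1 (-0.27). The calls of Igfbp4 and Igfbp7 in IT-like cells were lost under 4 and 3 alternatives, with log2 ratios as near to 0 as -0.77 and 0.24. Igfbp6 rose by the rule in all 8 classes, but in endothelial-like and OPC-like cells not with background subtracted (log2 2.17 and 2.48, under 20 UMIs), and Igfbp2 fell in the 6 that are neither endothelial-like nor microglia-like. Excitatory neuron markers summed to 1242 CPM in microglia-like cells at P4 and 379 in adult, and their part in the falls there was not tested.

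**Figure D4:**
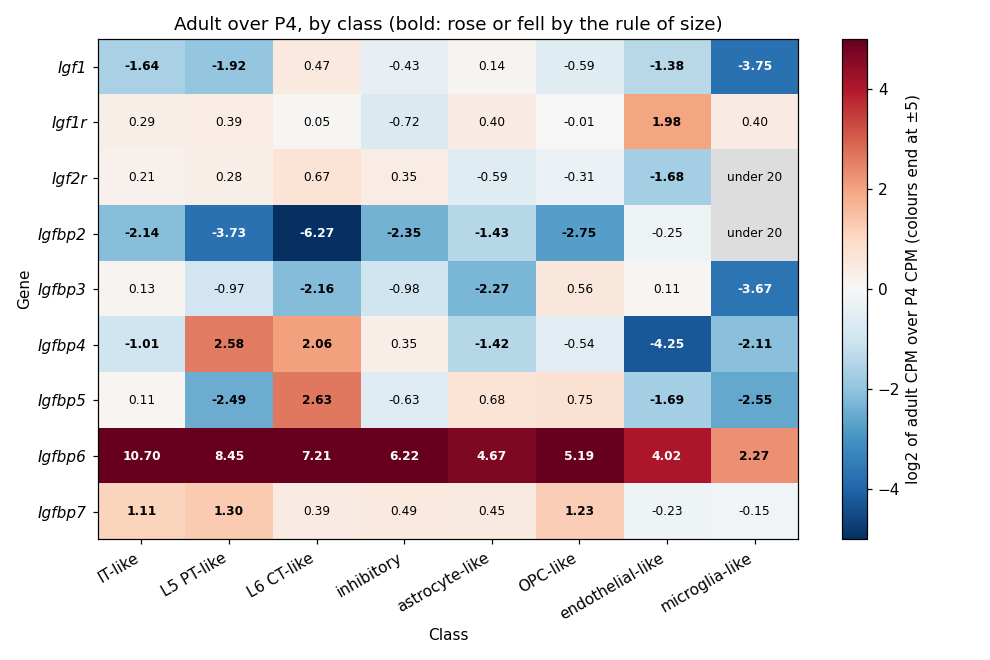
Heat map of the log2 ratio of adult over P4 CPM for 9 members (rows) in 8 classes (columns), with the value printed in each cell and bold where the gene rose or fell by the rule of size. Grey cells had under 20 UMIs on both sides and sides under 3 UMIs are set at 3. Igfbp6 is positive in every class, Igfbp4 is 2.58 in L5 PT-like and -4.25 in endothelial-like cells, and Igfbp5 is -2.49 in L5 PT-like and 2.63 in L6 CT-like cells.

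Igf1 and Igf1r UMIs were divided differently between the classes. Inhibitory neurons held 76.0%, 79.3%, 89.4% and 85.9% of the Igf1 UMIs from P1 to adult, with 12.1%, 11.0%, 15.8% and 13.4% of all UMIs. Vip-like cells alone held 45%, 46.3%, 45% and 46.6%. No Lamp5-like class was named at P1 and P4, so these shares are of unlike classes and are not compared between ages. At resolution 2.0 a P4 cluster of 463 cells that scored highest for Vip markers was left unnamed. At P1 Vip-like cells were also second in Igf1r, with 312 CPM after 676 in endothelial-like cells. Microglia-like cells held 8.97% of the Igf1 UMIs at P1 with 0.294% of the cells. Shares are of the cells recovered, which dissociation and capture may not sample evenly.

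Of the Igf1r UMIs, IT-like cells held 40.7%, 21.3%, 23.7% and 33.0% from P1 to adult, near or below their 47.6%, 25.8%, 32.5% and 43.1% of all UMIs. Clusters of 1445, 844 and 789 cells at P4 and of 981 at P10 were kept out of the IT-like class by their leading genes, so these shares are not compared between ages. Endothelial-like cells held 12.6% at P10 and 20.8% in adult with 1.74% and 1.82% of all UMIs. Inhibitory neurons held 14.3%, 11.8%, 10.7% and 6.61%, so in adult they held most of the Igf1 UMIs and less of those of its receptor than their 13.4% of all UMIs.

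For the binding proteins the class with most adult UMIs is given with its percent of all UMIs. Astrocyte-like cells held 53.8% of Igfbp2 (3.18% of all UMIs), L5 PT-like cells 40.6% of Igfbp4 (9.21%), IT-like cells 54.4% of Igfbp5 and 73.6% of Igfbp6 (43.1%), and endothelial-like cells 65.1% of Igfbp7 (1.82%). In IT-like cells the level of Igfbp5, 143 CPM, lay below Vip-like (223) and Sst-like cells (178). At P4 the corresponding shares were 27.2% of Igfbp2 in astrocyte-like, 14.7% of Igfbp4 in L5 PT-like and 82.3% of Igfbp7 in endothelial-like cells. Igfbp3 was spread more widely, with 28.3% in IT-like, 22.5% in inhibitory and 13.9% in L6 CT-like cells in adult.

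**Figure D5:**
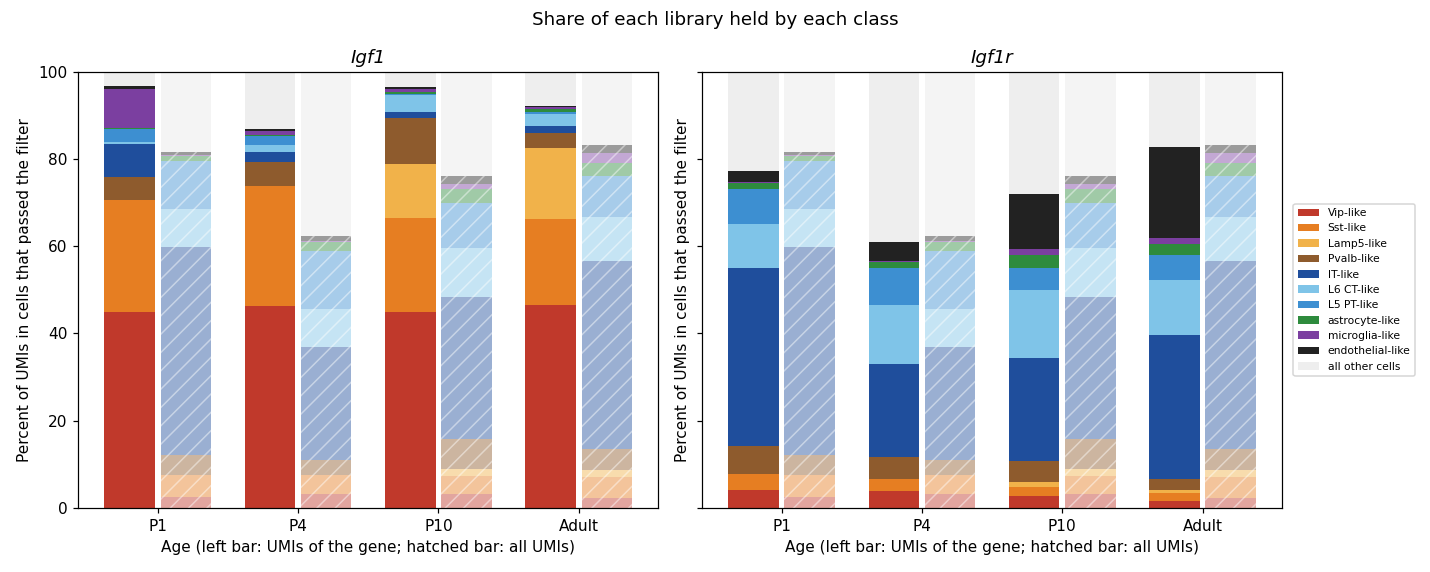
Stacked bars of the percent of a library's UMIs held by each class, for Igf1 (left) and Igf1r (right), with the hatched bar beside each giving the class's percent of all UMIs. Only cells that passed the filter are counted. Vip-like cells hold 45% to 46.6% of Igf1, but no Lamp5-like class was named at P1 and P4. Endothelial-like cells reach 20.8% of Igf1r in adult.

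Beyond the 10 members, 45 genes of 4 lists were followed from P4 to adult: the insulin receptors and docking proteins, the PI3K, AKT and mTOR kinases with their substrates, the proteases of binding proteins with their inhibitors, and related binders. In IT-like cells 5 of 41 tested rose and 13 fell, where 20.4% and 22.6% of all genes did. The largest rises were in Htra1, a secreted protease (0.645 to 3.93 CPM, log2 2.61, both at background), Foxo3, a transcription factor restrained by AKT (17.4 to 67.3 CPM, 1.95), and Pappa, the pregnancy-associated plasma protein A (0.0944 to 0.350 CPM, 1.89). The largest falls were in Igfbpl1, a binding protein relative (66 to 0.182 CPM, log2 -8.51), and in the RNA-binding proteins Igf2bp1 (3.46 to 0.0908, -5.25) and Igf2bp3 (3.78 to 0.104, -5.19).

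Inhibitory neurons had 3 rises and 11 falls among 42 tested genes (16.8% and 20.1% of all genes), led by Htra1 (4.52 to 37.6 CPM, log2 3.05), the adaptor Grb10 (24.8 to 83.1, 1.74) and the docking protein Irs2 (24.9 to 63.4, 1.35), and by Igfbpl1 (39.1 to 0.208, -7.55), the non-coding RNA H19 (6.14 to 0.0416, -5.62) and Igf2bp3 (4.56 to 0.0833, -5.19). Astrocyte markers in inhibitory neurons summed to 140 CPM at P4 and 525 in adult, where the background of Htra1 was 14.4 CPM. Their part in the rise of Htra1 there was not tested. Astrocyte-like cells had 3 rises and 10 falls among 37 (14.6% and 13.3% of all genes). Htra1 went there from 354 to 1989 CPM (log2 2.49), the PI3K subunit Pik3r1 from 91.8 to 250.1 (1.45) and Foxo1 from 87.0 to 198 (1.19), while Igf2bp3 went from 48.5 to 0.351 (-6.52), Igfbpl1 from 15.3, over a background of 11.8, to 0.527 (-4.86) and H19 from 12.7 to 0 CPM.

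In endothelial-like cells 6 of 36 rose and 4 fell, where 14.4% and 13.6% of all genes did. The mTOR partner Rptor (5.73, at background, to 16.6 CPM, log2 1.53), the protease Adamts1 (45.5 to 121, 1.41) and the adaptor Grb14 (39.7 to 104, 1.39) led the rises, and Igf2bp3 (28.6 to 0.307, -4.96), Igfbpl1 (19, at background, to 0) and Igf2bp1 (9.66 to 0.613, -3.39) the falls. In microglia-like cells 4 of 32 rose (12.3% of all genes), led by Htra1 (3.51 to 11.6, 1.73, both at background), Rptor (22.2 to 54.1, 1.28) and Igf2bp2 (17.5 to 40.9, 1.22), and 4 fell (16% of all genes), led by H19 (364 to 0.253, -8.91), Igf2bp3 (106 to 1.52, -6.13) and Foxo6 (26.9, at background, to 7.08, -1.93). Over this step the markers of dividing cells went from 1911 to 10.6 CPM in microglia-like cells, and their part in these changes was not tested. The P4 backgrounds of H19 and Igf2bp3 there were 1.88 and 3.35 CPM. By list, the related binders had 5 falls and no rise in IT-like and in inhibitory neurons, of 5 tested, and 4 of 4 fell in astrocyte-like cells, where 22.6%, 20.1% and 13.3% of all genes fell. In endothelial-like cells 3 of 3 fell, against 13.6% of all genes. In microglia-like cells 1 of 3 rose and 2 fell, against 12.3% and 16%. Over the 23 kinase and substrate genes the counts were 3 rises and 3 falls in IT-like, 0 and 1 in inhibitory, 2 and 2 in astrocyte-like, 3 and 1 in endothelial-like and 2 and 2 in microglia-like cells. The median log2 ratio over the lists was -0.28 in IT-like, -0.42 in inhibitory, -0.30 in astrocyte-like, 0.08 in endothelial-like and 0.20 in microglia-like cells, beside -0.12, -0.15, -0.12, -0.04 and -0.08 over all genes.

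The genes most like each member in their pattern were found by Pearson correlation of log2(CPM + 10) over 59 means of a class of at least 50 cells in a library, among 10057 genes. The points share libraries and depth, and the values are a description. Igf1 was nearest to Slc32a1 (0.84), Grin2d (0.83) and Gad1 (0.80), of which Slc32a1 and Gad1 define inhibitory neurons. Igf1r was nearest to Insr, the insulin receptor (0.83), then Rai14 (0.78) and Ptpn12 (0.77), and Igf2r to Foxs1 (0.83), Tbxa2r (0.83) and Cox4i2 (0.82). Igfbp2 was nearest to Fads2 (0.87), Ttpa (0.87) and Fgfbp3 (0.85), Igfbp6 to Ankrd33b (0.91), Pip4k2c (0.89) and Glt8d2 (0.89), and Igfbp7 to the vessel genes Foxc1, Foxf2 and Rbpms (0.98 each). Igfbp3 (Arl4a, 0.67; Shank3 and Fam13a, 0.58), Igfbp4 (Man2a1, 0.64; Ube2d3, 0.62; Slc43a3, 0.60) and Igfbp5 (Actr3b, 0.66; Tmem97, 0.59; Pfn2, 0.58) had lower correlations. Igf2 did not reach 50 CPM in any of these means and was not compared.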

How the data were processed

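The authors deposited unnormalized counts of UMIs for every cell barcode and gene. The BD Rhapsody WTA pipeline was run on GRCm38 with GENCODE vM19, giving 1 file per age. The file headers give version 1.11 for P1 and 1.8 for the others, while the methods state 1.11. Here cells with at least 1000 UMIs and 1000 genes and at most 15% mitochondrial UMIs were kept (of 11673, 19646, 16114 and 15961 barcodes from P1 to adult). Libraries totalled 340724049, 273834131, 287594712 and 200198548 UMIs. A gene missing from a file was taken as 0.

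Each library was clustered by itself with scanpy 1.11.5 (2000 variable genes, 30 principal components, 20 neighbours, leidenalg 0.10.2 at resolution 1.0, seed 1), with the 10 members and the pathway genes kept out of the variable genes. Clusters were named by their marker lists, IT-like ones by the looser rule given above. The authors' annotation was not used here, and naming thresholds were set after the clusters had been looked at. Scrublet marked 5.26% to 9.63% of cells as doublets, and these were kept. UMIs were summed over the cells of a class in each library. Intervals are exact Poisson for CPM, exact conditional binomial for ratios and Clopper-Pearson for shares (scipy 1.17.1), at the 95% level, for counting error only. A side under 3 UMIs was set at 3 in ratios. The free RNA background of a class is the median, over markers of unrelated cell types, of class CPM over library CPM, times the library CPM of the gene. A level is above it when its lower limit is. The ratios and calls were tested on simulated Poisson counts, the model that the intervals assume, which hold no variation between mice or libraries.

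The members and lists were chosen with earlier results of these data known. All 10 members are named. Pathway genes are named if among the 3 largest rises or falls of a class, and like genes if among the 3 highest correlations. Clusters within a class that are described were chosen after their values were seen. Alternatives were the resolution, a stricter cell filter, removal of doublets, the denominator, cell means, the UMI minimum, subtraction of background, the thinning depth, the pathway fold and, chosen after seeing the data, the inclusion of clusters left unnamed for their leading genes.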

Additional observations from a re-analysis of the deposited data

Results flagged for a closer look

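Igfbp4 moved in opposite directions between classes from P4 to adult. Its log2 ratio was 2.58 in L5 PT-like and 2.06 in L6 CT-like cells, against -1.01 in IT-like, -1.42 in astrocyte-like, -4.25 in endothelial-like and -2.11 in microglia-like cells. Igfbp5 likewise had a log2 ratio of 2.63 in L6 CT-like cells, against -2.49 in L5 PT-like, -1.69 in endothelial-like (-0.53 without marked doublets) and -2.55 in microglia-like cells. With 1 library per age these differences between classes were not tested.

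Igfbp5 also stood high in clusters that enter no class. An unnamed cluster of 149 cells at P4, led by Gfap and Sfrp1, held 1903 CPM [1792-2019], and an unnamed cluster of 70 cells at P10, led by Sfrp1 and Thbs4, held 2446 [2238-2669]. Both are above every named class of their library, where P4 L5 PT-like cells held 400 CPM and P10 fibroblast-like cells 557 CPM.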

How the results depend on the processing

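No paired analysis was possible because each age is 1 library, so the groups share fewer than 2 replicate numbers, and for the same reason no replicate could be left out. No log2 ratio of a called member changed sign. The class highest in a member at an age was lost in 3 of 40 pairs at resolution 2.0, 2 under the stricter cell filter and 3 each without doublets and by cell means, mostly in Igfbp6 before adulthood. Adult Igfbp7 was then higher in endothelial-like (2259 CPM) than mural-like cells under the stricter filter, and the rise of Igf1 in Vip-like cells from P4 to P10 was 1.56-fold to 1.95-fold under the 3 settings that lost it. Of the 36 log2 ratios of called members, 31 to 36 kept their side of the rule under each alternative, and those lost were mainly Igfbp7 and Igfbp4 in IT-like, Igf1, Igfbp5 and Igfbp6 in endothelial-like, Igfbp3 in microglia-like and Igfbp6 and Igfbp7 in OPC-like cells. The count of members that rose from P4 to adult became 1 in IT-like cells at resolutions 0.5 and 2.0 and by cell means. With free RNA background subtracted it became 5 in L6 CT-like, 2 in astrocyte-like, 1 in OPC-like (with 2 falls), 1 in endothelial-like and 2 in microglia-like cells. Members that fell became 2 in inhibitory neurons at resolution 2.0 and 2 in endothelial-like cells at resolution 0.5 or without doublets (log2 of Igfbp5 -0.53). The inhibitory share of Igf1 UMIs became 71.6% at P1, 55.2% at P4 and 66.1% at P10 at resolution 2.0, 83.0% at P4 at resolution 0.5, and 84.4% at P4, 90.7% at P10 and 88.1% in adult without doublets. Thinned to 1000 UMIs, 14.4%, 27.7%, 49.4% and 27.0% of Vip-like cells had an Igf1 UMI. At a pathway fold of 1.5, rises became 8 in IT-like, 5 in astrocyte-like and 12 in endothelial-like cells, and falls 16 in astrocyte-like and 7 in microglia-like cells. The 40 levels of the class highest in a member at an age were also recomputed. Of these, 21 left their printed interval without doublets, 21 with all genes in the denominator and 18 by cell means. At resolutions 0.5 and 2.0, 11 and 9 did, and 3 under the stricter filter. Moves of over 1.5 times were seen in 7 pairs of level and alternative, among them Igfbp5 in P1 astrocyte-like cells, 289 CPM at resolution 2.0. Igf1 from P10 to adult in Vip-like cells (2.03-fold and 2.05-fold) and from P4 to P10 in Sst-like cells (2.06-fold and 2.02-fold) passed the rule under 2 alternatives each. Steps between other ages or in single inhibitory classes, beyond Igf1 in Vip-like and Sst-like cells, were not recomputed under the alternatives. Classes of under 50 cells, and levels of Igf2 and of Igfbp6 before adulthood, are limited by their UMIs.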
